A study of Mus musculus with 2 samples.

Results

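By the deposited class, suffix models are transcript models whose chain of exon junctions is the 3' part of a longer annotated chain. At least 1 junction at the 5' end is then missing. For 98 of the models chosen here no such chain was found in the annotation. They were chosen here as models listed as an incomplete splice match of the subtype Suffix, with 2 or more exons and a count of 5 or more in either library. Matched between the libraries by their chain of junctions, they came to 1785 distinct models in 1116 genes. Of all 92074 models of replicate 2 they made up 1097, and of all 88152 models of replicate 1 they made up 896. In 208 cases both libraries gave the same chain 5 or more reads as a suffix model. The counts chose these models, so their read numbers are a description with no test. Just inside the threshold, 263 models of replicate 2 and 229 of replicate 1 had exactly 5 reads, and just outside it 414 and 372 had 4.

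The study sequenced total RNA of adrenal gland tissue from C57BL/6J mice of The Jackson Laboratory by long reads, each of which can span several exons of 1 transcript. It has 1 group with 2 biological replicates, called replicate 2 and replicate 1. A label describes the tissue as female and wild type, while the sex field reads not collected and age and stage are unknown. The replicates are different biosamples under the same donor label. A p-value between them compares the reads of 2 libraries under counting error only and measures no spread between libraries or animals.

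A messenger RNA begins at a capped base chosen by its promoter, and a gene can have several such starts. A shorter chain at the 5' end can therefore be a transcript with its own start, an RNA or cDNA that lost its 5' end, or an RNA in which an early intron was kept. A model of junctions alone does not separate these. The coding sequence of most genes begins in the first or second exon, so a missing 5' exon can remove either noncoding leader sequence or the start codon itself.

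Replicate 2 held 587861 reads and replicate 1 held 810239. All 7 cortex markers and all 6 medulla markers looked up had reads in both libraries, none of 4 kidney markers had any, and of 4 liver markers 2 reads in all were seen, both in replicate 1. The markers of other cell types differed: macrophage markers had 155 reads in replicate 2 and 935 in replicate 1, adipocyte markers 24 and 113, and endothelial markers 391 and 172. The part of cell makeup in the differences between the libraries was not tested. Annotated spliced models with 5 or more reads were longer in replicate 2 (median 2934 nt) than in replicate 1 (median 2044 nt). The part of this length difference in the results below was not tested.

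The start of a model is the edge of its first exon in the deposited annotation. For the most read models that begin inside an exon of an annotated transcript, the 30 bases around that start are shown, because they are where the longer annotated transcript and the suffix model part. The letters are those of the spliced annotated transcript in GENCODE M21. Lower case marks the last bases found only in the annotated transcript, and capitals mark the first bases of the suffix model.
Hsd3b1-202, from base 124: gcggctgctgcacagGAATAAAGGACATAA
Hao2-201, from base 483: agagcacagctaaagCTGCTCAGAAGGCCA
Ndufa13-201, from base 679: ggctcacgaaagaaaGGAACCTCCTGGGTG
Dhcr7-201, from base 470: gaacactgctggagaGCGTGGATCAGCCGC
Atp5f1-201, from base 469: agatgtgcgagcggcCATCTTGCTCCTGCC
The first 3 of these starts fall on the 5' edge of an annotated exon, so the change of case is an exon junction. The starts in Dhcr7 and Atp5f1 fall inside an exon, on the annotated start of another transcript of the same gene.

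In 3 of the 10 most read suffix models the start also lay within 50 nt of a start in RefSeq. Their promoter windows, 300 bases from the RefSeq table on GRCm38.p6 (250 before the RefSeq start and 50 from it), are shown because the start of the model can be placed in them. Capitals run from the first base of the suffix model.
Dhcr7, chr7:143829964-143830263, plus strand: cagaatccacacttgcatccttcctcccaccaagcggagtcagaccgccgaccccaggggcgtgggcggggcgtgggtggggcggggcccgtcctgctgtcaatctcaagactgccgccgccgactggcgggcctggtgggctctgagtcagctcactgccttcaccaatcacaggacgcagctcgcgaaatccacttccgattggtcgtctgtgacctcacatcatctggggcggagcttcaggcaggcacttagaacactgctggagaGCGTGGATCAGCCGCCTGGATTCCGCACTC
Prkar1a, chr11:109650292-109650591, plus strand: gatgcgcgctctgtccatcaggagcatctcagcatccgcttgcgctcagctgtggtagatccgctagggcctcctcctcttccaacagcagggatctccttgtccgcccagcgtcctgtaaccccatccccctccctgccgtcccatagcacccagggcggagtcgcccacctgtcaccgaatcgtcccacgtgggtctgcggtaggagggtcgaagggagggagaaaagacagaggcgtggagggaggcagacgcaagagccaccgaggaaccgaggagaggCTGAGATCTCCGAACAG
Atp5f1 (Atp5pb in RefSeq), chr3:105959214-105959513, minus strand: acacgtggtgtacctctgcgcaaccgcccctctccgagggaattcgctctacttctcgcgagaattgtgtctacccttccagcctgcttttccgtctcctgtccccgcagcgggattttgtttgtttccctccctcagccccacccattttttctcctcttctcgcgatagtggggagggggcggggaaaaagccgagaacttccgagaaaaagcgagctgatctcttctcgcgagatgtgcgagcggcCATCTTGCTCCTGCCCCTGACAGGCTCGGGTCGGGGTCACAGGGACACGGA
The Dhcr7 model began 20 nt and the Prkar1a model 33 nt downstream of the RefSeq start, and the Atp5f1 model began 1 nt upstream of it. RefSeq lists 3 starts for Dhcr7 and 6 for Prkar1a, but 1 for Atp5f1. The 6-letter run GGGCGG occurred 3 times on the shown strand of the Dhcr7 window and not on the other, and once on each strand of both other windows. On either strand it was present in 35.7% of all 32851 promoter windows of the table. No window of the 3 held TATAAA on either strand, against 13.6% of all windows. The pair CG occurred 21 times in Dhcr7, 20 times in Prkar1a and 23 times in Atp5f1, against a median of 7.00 in all windows. Of all windows, 75.2% had fewer than Dhcr7, 73.5% fewer than Prkar1a and 78.5% fewer than Atp5f1, so such numbers are not rare. A match of letters is a description and not a binding site.

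Suffix models of the chosen set took 2.72% of the reads of replicate 2 (15990 of 587861 reads, 95% Clopper-Pearson interval 2.68 to 2.76%) and 3.31% of replicate 1 (26815 of 810239 reads, 3.27 to 3.35%). The mean share was 3.01 ± 0.417% (SD, n = 2). The higher share of replicate 1 rests on Hsd3b1, whose most read chain is listed as Suffix in replicate 1 only. Without Hsd3b1 the member reads were 15845 in replicate 2 and 16290 in replicate 1, and the share was then higher in replicate 2. Over all suffix models of 2 or more exons, with no count minimum, the share was 5.99% in replicate 2 and 5.42% in replicate 1. A member of replicate 2 had a median of 7 reads and a member of replicate 1 a median of 8. Counts of 100 or more were reached by 11 models in replicate 2 and 22 in replicate 1. A member was the most read spliced model of its gene in 18% of the members of replicate 2 (198 of 1097, 15.8 to 20.5%) and 13.3% of those of replicate 1 (119 of 896, 11.1 to 15.7%). Members of replicate 2 were longer, with a median of 2972 nt and 10 exons, against 1416 nt and 5 exons in replicate 1. Most genes had a single member (839 genes), and 56 genes had 5 or more.

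The most read suffix model came from Hsd3b1, which codes for a 3-beta-hydroxysteroid dehydrogenase that makes progesterone from pregnenolone. This 4-exon model began at base 98858341 of chromosome 3, minus strand, and lacked only the first exon of Hsd3b1-202, a stretch of 123 nt. It held 1995 reads in replicate 2 and 9923 in replicate 1, or 89.9% and 92.5% of all spliced reads of the gene. As CPM, the count scaled to the total reads of the library, its level was 3394 in replicate 2 and 12247 in replicate 1 (7820.3 ± 6260.3, SD, n = 2). The annotated transcript itself had 3 reads in replicate 2 and 5 reads in replicate 1. Its start codon lies in a later exon and was kept. The class of this chain differed between the libraries: in replicate 2 it was listed as both Prefix and Suffix and is therefore no member there, and in replicate 1 as Suffix. A second Hsd3b1 model, of 3 exons, began at base 98858152 and had 142 reads in replicate 2 and 542 in replicate 1. Its first exon began inside the first intron of Hsd3b1-201 and kept 126 intron bases. Together, Hsd3b1 models made up 0.907% of the member reads of replicate 2 and 39.3% of those of replicate 1.

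**Figure D1:**
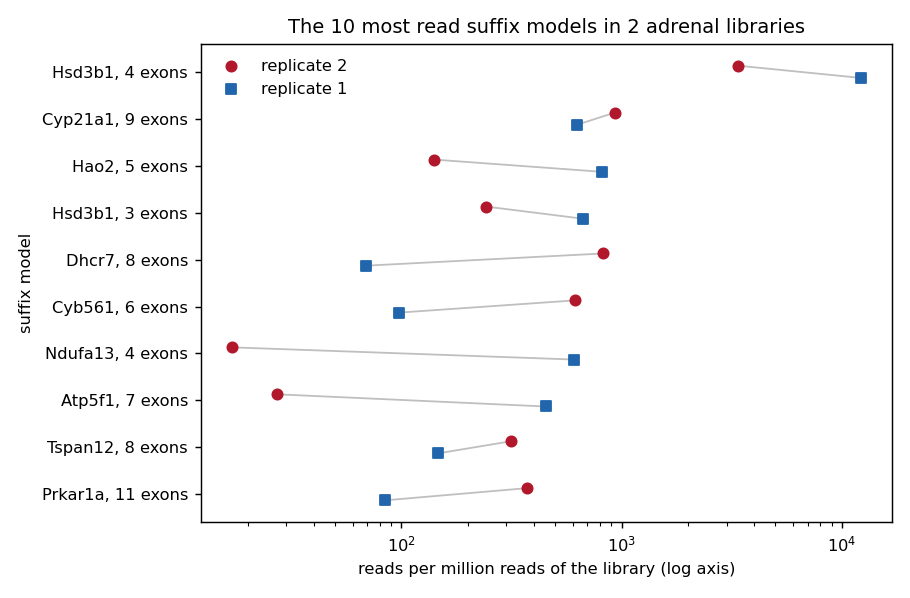
Level of the 10 most read suffix models in replicate 2 (red circles) and replicate 1 (blue squares), in reads scaled to a library of equal size (CPM) on a log axis; grey lines join the libraries. The Hsd3b1 4-exon model stands at 3394 in replicate 2 and 12247 in replicate 1, and Dhcr7, Cyb561, Tspan12, Prkar1a and the Cyp21a1 model are higher in replicate 2.

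Hao2, a peroxisomal 2-hydroxyacid oxidase, had a 5-exon suffix model with 83 reads in replicate 2 and 659 in replicate 1. It lacked 4 junctions and 482 nt of Hao2-201, and with them the start codon and 26.7% of the coding sequence. This model held 72.2% of the spliced reads of the gene in replicate 2 and 71.6% in replicate 1, while Hao2-201 had 3 and 42 reads. Here the suffix model was the main form of the gene in both libraries, although its level was 141 CPM in replicate 2 and 813 CPM in replicate 1 (477 ± 475 CPM, SD, n = 2). As a whole the model was not shorter: it was 2418 nt long, against 2049 nt for Hao2-201.

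Cyp21a1, the steroid 21-hydroxylase, had a 9-exon suffix model with 547 reads in replicate 2 and 507 in replicate 1. Its annotated parent, Cyp21a1-201, had 12654 and 23346 reads, so the suffix model took 3.91% of the spliced reads of the gene in replicate 2 and 2.01% in replicate 1. The model lacked 154 nt of the parent, began in the first exon at the annotated start of another transcript, and kept the 64 bases of the first intron and the start codon. Mouse Cyp21a1 has a near-identical pseudogene copy, and Hsd3b1 and Eef1a1 have close family members or copies, so the division of reads among such genes is uncertain.

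Dhcr7, the last enzyme of cholesterol synthesis, had an 8-exon suffix model with 487 reads in replicate 2 and 56 in replicate 1. It held 77.5% of the spliced reads of the gene in replicate 2 and 72.7% in replicate 1, and Dhcr7-201 had 1 read in each. The model began at base 143830234 of chromosome 7, while Dhcr7-201 begins at base 143823167, and its start codon in a later exon was kept. Prkar1a, a regulatory subunit of protein kinase A, had an 11-exon model with 218 reads in replicate 2 and 68 in replicate 1, or 21.9% and 13.8% of the spliced reads of the gene. It also kept the start codon in a later exon.

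Among genes of mitochondrial energy metabolism, Atp5f1, a subunit of the ATP synthase stalk, had a 7-exon suffix model with 16 reads in replicate 2 and 366 in replicate 1 (27.2 and 452 CPM). This model held 80.0% and 96.6% of the spliced reads of the gene, and its annotated parent had 0 reads in both libraries. Ndufa13, a subunit of complex I, had a 4-exon model with 10 reads in replicate 2 and 495 in replicate 1, which lacked 678 nt of Ndufa13-201, a transcript with 0 reads in both libraries. This chain was listed as both Prefix and Suffix in replicate 2 and as Suffix in replicate 1. Both models kept the start codon in their first exon.

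The remaining models of the 10 were from Cyb561, Tspan12 and the second Hsd3b1 chain. Cyb561, an electron carrier of chromaffin granules, had a 6-exon model with 360 reads in replicate 2 and 79 in replicate 1. It was listed as Suffix in replicate 2 and as a new combination of known splice sites in replicate 1, and no annotated transcript of GENCODE M21 ends with its whole chain. Tspan12, a tetraspanin of the cell membrane, had an 8-exon model with 185 reads in replicate 2 and 118 in replicate 1, or 77.4% and 84.3% of the spliced reads of the gene.

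Of the 10 models, 7 were listed as Suffix in both libraries. Over the whole set, 43 of the 1785 chains had another class in the other library, and 995 were listed as Suffix in both at any count. Chains that replicate 2 lists as both Prefix and Suffix held 10715 of the member reads of replicate 1, most of them from Hsd3b1.

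The start positions were next set against the annotation. A start fell exactly on an annotated exon or transcript edge of the gene in 92.2% of the models (1646 of 1785). It was the 5' edge of an internal or last exon in 53.5%, an annotated transcript start in 31.5%, an annotated transcript end in 5.15% and a 3' exon edge in 2.07%. The remaining 139 models (7.79%) began at a position of their own. The first exon was an annotated exon as a whole in 70.4% of the models. The first sequenced base of each read is not in the tables used here.

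A start lay within 50 nt of an annotated transcript start of the same gene in 32.1% of the models (573 of 1785, 29.9 to 34.3%). Among suffix models with 1 to 4 reads this share was 21.6% (5233 of 24221, 21.1 to 22.1%). With starts of protein-coding transcripts only, the shares were 15.6% (279 of 1785, 14.0 to 17.4%) for the models and 7.97% (1931 of 24221, 7.63 to 8.32%) for those with 1 to 4 reads. Against RefSeq, among models of genes with a promoter window, the share was 7.20% (102 of 1417, 5.91 to 8.67%), and 2.63% (512 of 19438) among models with 1 to 4 reads. The shares differed by more than their counting intervals in each of these comparisons, although these intervals treat models of the same gene as separate. Counted by reads, starts near an annotated start held 41.0% of member reads in replicate 2 and 26.0% in replicate 1. Without Hsd3b1 these were 41.4% and 42.8%.

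For 98 models no annotated transcript of the gene in GENCODE M21 ended with the whole chain, and these have no parent. For 1687 models an annotated transcript of the gene ended with the whole chain of the model, and the one with the most reads was taken as parent. These models lacked a median of 528 nt at the 5' end (quartiles 192 and 1085 nt) and a median of 2 junctions. A median of 80.5% of the parent length lay downstream of the missing part. Differences at the 3' end are not counted in this share. A single junction was missing in 38.8% of the models (654 of 1687, 36.4 to 41.1%), against 16.6% of suffix models with 1 to 4 reads (3569 of 21470, 16.1 to 17.1%). For 10 or more missing junctions the shares were 14.5% and 29.3%. Models that start near an annotated start lacked a median of 262 nt and 1 junction, and the others lacked 667 nt and 3 junctions.

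**Figure D2:**
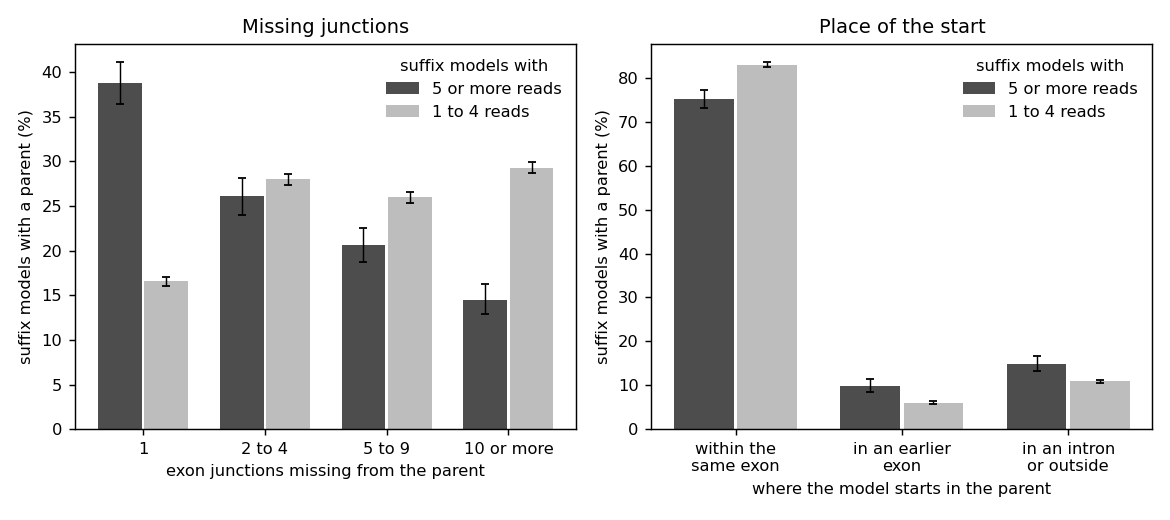
Share of suffix models with an annotated parent by the number of missing junctions (left) and by the place of the start in the parent (right), for models with 5 or more reads (dark) and 1 to 4 reads (light); error bars are 95% Clopper-Pearson intervals. Models with 5 or more reads lack a single junction in 38.8% of cases, against 16.6% for the others.

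The longest missing part was in Huwe1, a ubiquitin ligase, whose 6-exon model had no listed count in replicate 2 and 5 reads in replicate 1 and lacked 75 junctions and 12146 nt. A count of 0 allows up to 3 reads, or 5.10 CPM in replicate 2 and 3.70 CPM in replicate 1. Tln1, which codes for talin and links integrins to actin, had 2 models lacking 7450 and 7325 nt, with 6 and 14 reads in replicate 1 and none listed in replicate 2. Tle3, a transcriptional corepressor, had a 6-exon model with 13 reads in replicate 2 and none listed in replicate 1 that lacked 6537 nt.

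Not every suffix model was a shortened copy of its parent. In 75.2% of the models (1269 of 1687) the first exon lay within the matching exon of the parent. In 9.84% (166 models) the model began in an earlier exon and ran through at least 1 intron, and in 14.9% (252 models) it began in an intron of the parent (236 models) or upstream of its start (16 models). Together, 24.8% of the models (418 of 1687, 22.7 to 26.9%) kept intron bases of the parent, and 18.5% kept 100 or more. Among suffix models with 1 to 4 reads these shares were 17.0% and 13.7%. Models that ran through an intron lacked a median of 73.0 nt of the parent and kept a median of 242 intron bases. In 53 models (3.14%), the 16 with an upstream start among them, no base of the parent was missing. For these the description as lacking the 5' end holds for the junctions but not for the sequence.

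Eef2, the translocase of translation elongation, gave an example. Its 13-exon model began at the start of Eef2-201 on chromosome 10, lacked no base of it, and kept the 935 bases of the first intron. It had 81 reads in replicate 2 and 4 in replicate 1, against 5141 and 357 reads of Eef2-201. Star, which carries cholesterol to the inner mitochondrial membrane, had a 6-exon model with 68 reads in replicate 2 and 33 in replicate 1 that began at the start of Star-201 and kept 823 intron bases. A 4-exon Star model with 77 reads in replicate 2 and 53 in replicate 1 began in an earlier exon of Star-201 and kept 1010 intron bases. Slc25a3, the mitochondrial phosphate carrier, had a 6-exon model with 80 reads in replicate 2 and 25 in replicate 1 that kept 1723 intron bases.

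In 2 ribosomal protein genes such models had more reads in replicate 1. The Rplp0 model that kept 247 intron bases had 16 reads in replicate 2 and 111 in replicate 1, and the Rpl6 model that kept 853 had 7 and 119. Their parents also had more reads there: Rplp0-201 had 85 in replicate 2 and 1207 in replicate 1, and Rpl6-201 had 24 and 554. Set against its parent, neither model was more frequent in replicate 1. Npy, the neuropeptide Y of chromaffin cells, had a 3-exon model that lacked no base of its parent and kept 796 intron bases, with 19 reads in replicate 2 and 23 in replicate 1. In Cyp11a1, which makes pregnenolone from cholesterol, a 2-exon model with 35 reads in replicate 2 and 34 in replicate 1 began in an intron of Cyp11a1-201 and kept 3453 intron bases, the most among the 1687. Its start was the annotated end of another transcript.

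Whether the missing part held the start codon was known for 1630 models with an annotated start codon in the parent. Here and above, kept refers to the position of the codon alone. The reading frame through kept intron bases was not examined. The start codon was lost in 75.2% of them (1225 of 1630, 73.0 to 77.2%), kept in the first exon of the model in 21.2% and kept in a later exon in 3.62%. Among suffix models with 1 to 4 reads it was lost in 91.2% (18430 of 20214, 90.8 to 91.6%). The loss followed the number of missing junctions: it was 40.4% with a single missing junction (257 of 636) and 97.4% with 2 or more (968 of 994). It was 53.9% for models that start near an annotated start (263 of 488) and 84.2% for the others (962 of 1142). By the first exon, it was 81.7% where the model began within the matching exon, 39.7% where it ran through an intron from an earlier exon and 64.4% where it began in an intron or outside the parent. Where the start codon was lost, a median of 32.6% of the coding sequence was lost with it.

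By function, lists of adrenal genes gave the following members. Of 15 genes of steroid synthesis, 8 had members, 46 in all, with 1270 reads listed as Suffix in replicate 2 and 12289 in replicate 1; Hsd3b1 gave 145 and 10525 of these. Apart from the models above, Cyp11b1, the steroid 11-beta-hydroxylase, had a 6-exon model with 68 reads in replicate 2 and 51 in replicate 1, beginning at a position of its own and lacking 636 nt and the start codon. Por, which passes electrons to microsomal P450 enzymes, had a 15-exon model with 13 reads in replicate 2 and 1 in replicate 1, beginning at an annotated start. Nnt, a mitochondrial transhydrogenase, had a 16-exon model with 7 reads in replicate 2 and none listed in replicate 1.

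Of 22 genes of cholesterol supply, 9 had members, 16 in all, with 637 reads in replicate 2 and 164 in replicate 1. In replicate 2 most of these reads were those of Dhcr7. Fdps and Hmgcs1, which act earlier in sterol synthesis, kept the start codon in their most read model. In replicate 2 and replicate 1, the Fdps model had 4 and 15 reads and the Hmgcs1 model 11 and none listed. Scarb1, the receptor for high-density lipoprotein, had a 2-exon model that lacked 1613 nt, with none listed in replicate 2 and 20 reads in replicate 1.

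Of 16 regulators of steroid cells, 7 had members, 19 in all. Nr5a1, the transcription factor SF-1, had a 4-exon model with 104 reads in replicate 2 and 38 in replicate 1, lacking 3 junctions, 445 nt and the start codon. It held 9.65% of the spliced reads of the gene in replicate 2 and 26.0% in replicate 1. Gnas, the stimulatory G protein subunit, had a 12-exon model with 15 reads in replicate 2 and 45 in replicate 1 that lacked no base of its parent and kept 95 intron bases.

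Of 25 chromaffin genes, 11 had members, 22 in all, with 205 reads in replicate 2 and 380 in replicate 1. Chgb, a granin of secretory granules, had a 2-exon model with 40 reads in replicate 2 and 126 in replicate 1 that lacked the start codon but only 9.35% of the coding sequence. Slc18a1, the vesicular monoamine transporter of chromaffin cells, had a 16-exon model with 33 reads in replicate 2 and 21 in replicate 1 that began at an annotated start and kept the start codon. That model held 75% of the spliced reads of the gene in replicate 2 and 87.5% in replicate 1, and its parent had 1 read and 0 reads. Gata3, a transcription factor of chromaffin cells, had a 5-exon model with 7 reads in replicate 2 and 13 in replicate 1, or 63.6% and 56.5% of the spliced reads of the gene. Th, the first enzyme of catecholamine synthesis, had a 6-exon model with none listed in replicate 2 and 12 reads in replicate 1 that lacked 7 junctions and the start codon.

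Among general lists, 12 of 20 chaperone genes had 47 members, 11 of 19 translation factors had 49, 15 of 24 enzymes of lipid and redox metabolism had 76, 11 of 24 splicing factors and RNA-binding proteins had 19, and 6 of 22 large cytoskeletal and motor proteins had 13. In the chaperone list, Hspd1 had a model with 60 reads in replicate 2 and 17 in replicate 1 that kept the start codon, and Hspa8 one with 1 and 68 reads that lacked it. Both are folding chaperones, of mitochondria and of the cytosol. Of the translation factors, Eef1a1, which brings transfer RNA to the ribosome, had a 7-exon model with 117 reads in replicate 2 and 63 in replicate 1 that kept the start codon and began at an annotated start. Eif4b, a cofactor of the initiation helicase, had a 14-exon model with 77 reads in replicate 2 and 3 in replicate 1 that lacked it. Among the lipid and redox enzymes, Elovl5, which lengthens unsaturated fatty acids, had a 4-exon model with 59 reads in replicate 2 and 47 in replicate 1, lacking 4 junctions and 495 nt. Mgst1, a membrane-bound glutathione transferase, had a 3-exon model with 2 reads in replicate 2 and 64 in replicate 1 that kept the start codon. Ddx5, an RNA helicase of splicing, had a 2-exon model with 54 reads in replicate 2 and 19 in replicate 1 that began in an intron and kept 958 intron bases. In the list of large proteins, the most read model, of Tln1, had 23 reads in replicate 2 and 2 in replicate 1 and lacked 36 junctions.

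Some genes held a ladder of suffix models that share their 3' exons and begin at successive exons. Acly, which makes cytosolic acetyl-CoA, had 22 members with 239 reads in replicate 2 and 70 in replicate 1. Its annotated transcript Acly-201 had 1264 and 287 reads. The 3 members that lacked the most, 2726, 2841 and 2992 nt, had 1 read each in replicate 2 and 12, 6 and 27 reads in replicate 1. These 3 were listed only through their counts in replicate 1. The most read member of replicate 2 lacked 2074 nt and had 42 reads, against 8 in replicate 1. C3, a complement component, had 19 members with 289 reads in replicate 2 and 21 in replicate 1. In replicate 1 no C3 member had more than 5 reads. The parent C3-201 had 406 reads in replicate 2 and 7 in replicate 1. Replicate 1 thus held few C3 reads, and the places of the C3 reads cannot be compared between the libraries. The 40-exon model that lacked 181 nt had 44 reads in replicate 2 and none listed in replicate 1, the 21-exon model that lacked 2684 nt had 30 and none listed, and the 15-exon model that lacked 3491 nt had none listed in replicate 2 and 5 reads in replicate 1.

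In the ladders of Eef2 and Cyp11b1, as in that of Acly, the libraries differed in where their reads lay. In Eef2, with 15 members, the 3 models that began 2056 nt into the parent had 2, 0 and 0 reads in replicate 2 and 9, 11 and 7 in replicate 1. In Cyp11b1, with 8 members, the model lacking 276 nt had 44 reads in replicate 2 and 22 in replicate 1, while the model lacking 1238 nt had 9 and 88. The members of a ladder share a gene and their 3' exons, so they are not independent.

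**Figure D3:**
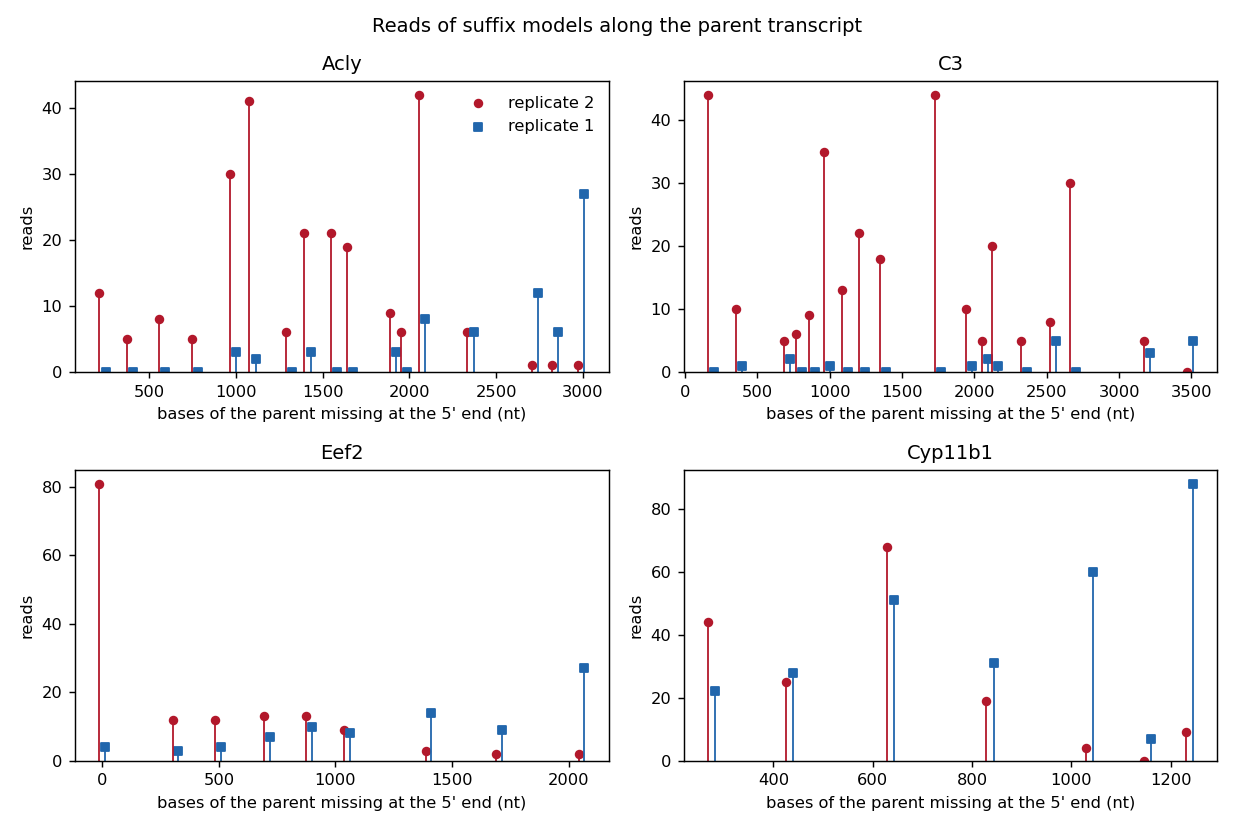
Reads of the suffix models of Acly, C3, Eef2 and Cyp11b1 against the bases of the parent that they lack at the 5' end, in replicate 2 (red circles) and replicate 1 (blue squares); models that lack the same bases are summed, models with no parent are left out, and the symbols are set slightly apart. In Acly, the 3 positions from 2726 nt on have 1 read each in replicate 2 and 12, 6 and 27 in replicate 1, and were listed only through replicate 1.

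Chains were then looked for in the other library. A member of replicate 2 was found in replicate 1 in any class in 61.3% of cases (672 of 1097), and a member of replicate 1 in replicate 2 in 64.1% (574 of 896). At an equal count of 5 to 9 reads, 53.5% of the suffix models of replicate 2 (376 of 703, 49.7 to 57.2%) and 55.3% of those of replicate 1 (302 of 546, 51.0 to 59.5%) were found in the other library. Annotated models at that count were found in 79.7% and 75.2% of cases, above the interval of the suffix models in both libraries. Prefix models, which lack the 3' end, were found in 63.5% and 41.4%. Models with a new combination of known splice sites were found in 58.0% and 72.3%, and models with an unannotated splice site in 56.1% and 51.0%. A share below that of annotated models was therefore not particular to suffix models.

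Of the 995 chains listed as Suffix in both libraries, 69.4% had the same start in both (691 of 995) and 76.0% had starts within 50 nt (756 of 995, 73.2 to 78.6%). These are starts of models, and the starts of the reads were not compared. Where the start was off every annotated edge in both libraries, 11 of 36 chains had the same start (30.6%, 16.3 to 48.1%) and 17 were within 50 nt. Chains with starts farther apart than 50 nt differed by a median of 428 nt.

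The share of suffix reads was next set against the length of the annotated transcript, counting reads of all suffix models with a parent and of annotated spliced models. For transcripts of 6 kb and longer the share was 20.3% in replicate 2 and 18.8% in replicate 1, and for 4 to 6 kb it was 12.2% and 11.8%. For 2 to 3 kb it was 4.52% in replicate 2 and 6.46% in replicate 1, and for 3 to 4 kb 5.71% and 9.19%. Under 1 kb it was 8.19% in replicate 2 and 1.51% in replicate 1. From 1 to 2 kb the shares were 5.76% and 8.60%, and without Hsd3b1 5.42% and 4.22%.

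**Figure D4:**
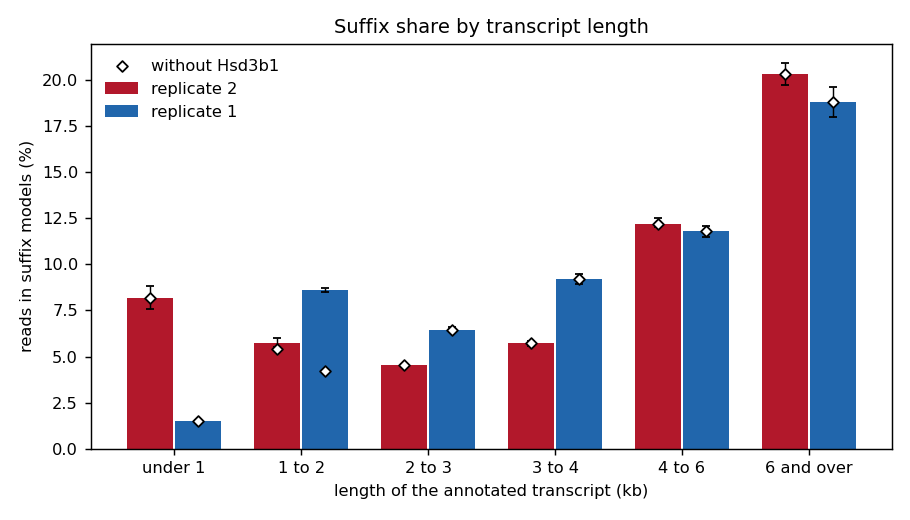
Share of reads in suffix models, of reads in suffix and annotated spliced models, by the length of the annotated transcript in replicate 2 (red) and replicate 1 (blue); error bars are 95% Clopper-Pearson intervals and diamonds leave out Hsd3b1. The share is 20.3% and 18.8% at 6 kb and longer and, under 1 kb, 8.19% in replicate 2 and 1.51% in replicate 1.

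The libraries were compared gene by gene. For 3264 genes with at least 10 such reads in each library, suffix reads were set against annotated spliced reads with Fisher's exact test (two-sided) and Benjamini-Hochberg adjustment over all genes at 0.05. The test compares the reads of 2 libraries, has no replicate check and says nothing about conditions. The share was called different in 287 genes (8.79%), higher in replicate 2 in 50 (1.53%) and lower in 237 (7.26%). At an unadjusted p under 0.05 there were 602 genes. Against all other reads of a gene in place of annotated spliced reads, 105 genes were higher in replicate 2 and 207 lower. The median share was 3.03% in replicate 2 and 4.91% in replicate 1. The most read annotated transcript had a median length of 1502 nt in genes called higher in replicate 2, 3150 nt in genes called lower and 2650 nt in the others.

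Of 726 tested genes with a member, 172 were called, 40 higher in replicate 2 and 132 lower. The same suffix reads chose the members, so nothing is read from this count. The calls with the largest differences show the forms involved. Ddrgk1, an adaptor of protein modification by Ufm1, had suffix reads in 34 of 40 reads in replicate 2 (85.0%) and 18 of 242 in replicate 1 (7.44%), with an adjusted p of 3.05e-22 by Fisher's exact test. Its most read member kept 2078 intron bases and lacked no base of the parent. Atp5d, a subunit of the ATP synthase, had 69.0% in replicate 2 and 3.11% in replicate 1, and its most read member began 858 nt upstream of the parent and kept 2458 intron bases. Golgb1, the Golgi protein giantin, had 100% in replicate 2 and 33.33% in replicate 1, with no member. Cyb561 had 73.1% and 7.58%, but its 6-exon chain is listed as Suffix in replicate 2 alone. Atp5j, a further ATP synthase subunit, had 76.9% and 18.3%, but its 4-exon chain was listed as Suffix with 10 reads in replicate 2 and as both Prefix and Suffix with 294 in replicate 1. With a chain listed as Suffix in either library counted as suffix in both, Atp5j was no longer called (76.9% in replicate 2 and 69.0% in replicate 1). Cyb561 was then called with a smaller difference, 73.1% in replicate 2 and 57.9% in replicate 1, with an adjusted p of 0.0111 by Fisher's exact test with Benjamini-Hochberg adjustment.

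Large differences in the other direction were in Ddx3x, Nrd1, Bmp1 and Slc22a17. Ddx3x, an RNA helicase, had 30 suffix and 484 annotated reads in replicate 2 (5.84%) and 13 and 1 in replicate 1 (92.86%). Nrd1 and Bmp1, both proteases, had 2.70% each in replicate 2 and 76.47% and 75% in replicate 1. Slc22a17, a cell surface receptor for lipocalin, had 8.33% and 80.0%. The genes Nrd1, Bmp1 and Slc22a17 have no member.

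**Figure D5:**
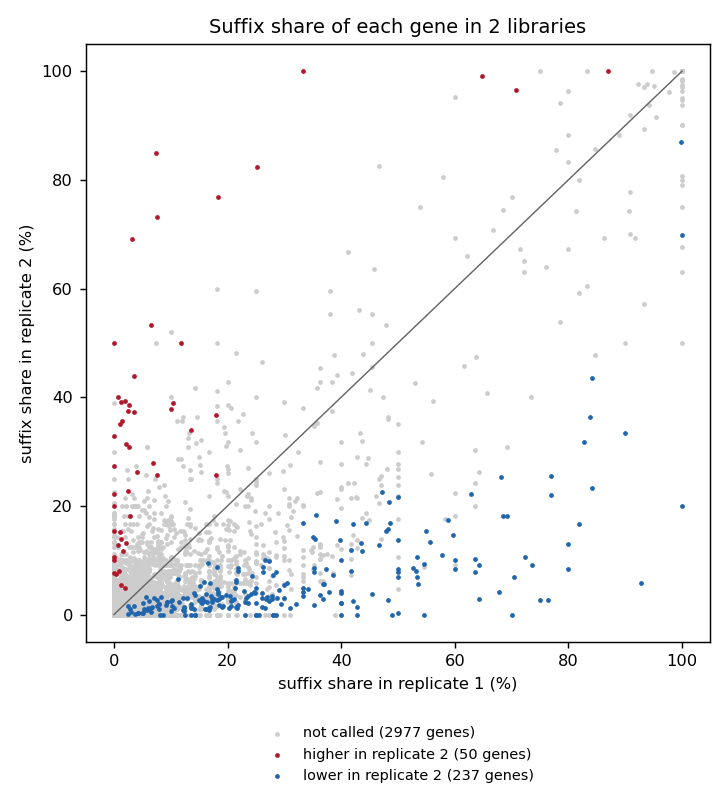
Suffix share of each of 3264 genes in replicate 2 (vertical axis, percent) and replicate 1 (horizontal axis, percent); red points were called higher in replicate 2, blue points lower, grey points were not called by Fisher's exact test with Benjamini-Hochberg adjustment. More points are called below the diagonal (237) than above it (50).

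By list, the chaperones had 20 tested genes, of which 1 was called higher in replicate 2 and 11 lower. Their median difference was -5.31 percentage points, against -1.10 over all genes tested. For this and the next lists, the shares over all genes tested were 1.53% called higher and 7.26% called lower. Calls were more frequent among genes with more reads: 12.8% at 20 or more reads in each library, against 8.79% at 10 or more. Hsp90b1, the chaperone of the endoplasmic reticulum, had 5.65% in replicate 2 and 53.44% in replicate 1, and Hsp90ab1, its cytosolic relative, had 4.97% and 21.29%. The gene called higher was Hspe1, the small mitochondrial cochaperonin, with 11.76% and 1.57%. Translation factors had 18 tested genes, 0 called higher and 6 lower, with a median of -8.57 points; Eef2 had 3.56% in replicate 2 and 19.78% in replicate 1.

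Steroid synthesis had 11 tested genes, of which 0 were called higher and 5 lower, with a median of -0.29 points. Those called were Star, Hsd3b1, Cyp11b1, Fdxr and Por. Hsd3b1 had 87.0% in replicate 2 and 99.8% in replicate 1, with its 4-exon chain not listed as Suffix in replicate 2. With a chain listed as Suffix in either library counted as suffix in both, Hsd3b1 had 99.0% and 99.8% and was still called. Star had 1.58% in replicate 2 and 2.41% in replicate 1, Cyp11b1 had 1.11% and 2.83%, and Por had 4.17% and 24.72%. Among 17 genes of cholesterol supply, Scarb1 (0.86% in replicate 2 and 5.43% in replicate 1) and Scap (25.35% and 68.18%) were called lower. Chromaffin genes had 10 tested, with 1 higher and 4 lower: Npy, a short transcript, had 38.60% in replicate 2 and 2.62% in replicate 1, while Chgb had 2.47% and 9.96%. Of 10 tested regulators of steroid cells, Prkar1a was called higher, with 25.65% and 17.93%, and Nr5a1 (16.90% and 44.34%) and Gnas (8.76% and 18.07%) lower.

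The lists of lipid and redox enzymes (18 tested, 1 higher and 4 lower), splicing factors and RNA-binding proteins (17 tested, 1 higher and 3 lower) and large cytoskeletal and motor proteins (10 tested, 1 higher and 1 lower) had medians of 0.74, -7.14 and 0.00 points. In the last list suffix reads outnumbered annotated spliced reads in both libraries, with a median share of 91.0% in replicate 2 and 87.9% in replicate 1. The parts of transcript length and of read number in the results by list were not tested.

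The bases just before the start were also read, where the start lay inside an exon of the parent. The run GGG on the transcript strand, looked for because cDNA kits with template switching use an oligonucleotide ending in G, stood directly before the start in 1.87% of the models (26 of 1394, 1.22 to 2.72%). At all positions of the same parents it stood in 1.76%. Of the 1394 starts, 78 lay off every annotated edge. The others lay on an annotated edge, and where their reads began is not known. The 1.87% therefore says nothing about template switching. At starts off every annotated edge it was present in 8.97% (7 of 78, 3.68 to 17.6%), and in 5.63% (40 of 710, 4.06 to 7.59%) of such starts among suffix models with 1 to 4 reads. At 5' edges of exons it was present in 0.866% (8 of 924). The 3 most read of the 7 are shown with the suffix model in capitals.
Ptp4a1-206, from base 436: tcagacctggatgggGTAAACCTCAGTGCA
Wdr6-201, from base 1140: ctggcaggccgagggTACCCAGGCTTGGGC
Rrbp1-201, from base 2062: ccaaggcaagaagggGGAGGGGGCTTCCAA
The Ptp4a1 model, from a gene for a tyrosine phosphatase, was seen 32 times in replicate 2 and 66 times in replicate 1. The model of Wdr6, a gene for a protein with WD repeats, had 48 and 9 reads, and that of Rrbp1, a gene for a ribosome-binding protein of the endoplasmic reticulum, had 34 and 3. The cDNA preparation is not given in the sources used here, and the part of any preparation step in these starts was not tested.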

How the data were processed

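The long-read RNA-seq libraries of mouse adrenal gland analysed were replicates 2 and 1 of a single group. Each library has its own deposited table of read counts, unnormalized whole numbers for every model with at least 1 read. The models were built per library on mm10 with GENCODE M21, per the notes deposited with them. The column names are those of TALON, a program that assigns long reads to transcript models. The sources used here do not give the aligner, the read correction or any tool version. Coordinates are counted from 1.

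Suffix models were taken by the deposited class, 2 or more exons and a count of 5 or more, and were matched between libraries by strand and chain of junctions, since unannotated identifiers are separate in each library. The start, exons and length were read from the library with more reads. The parent was the GENCODE M21 transcript whose chain ends with that of the model, with the most reads over both libraries, then the fewest missing junctions. Levels are CPM, counts scaled to the library total. Shares carry 95% Clopper-Pearson intervals, and a count of 0 allows up to 3 reads. Amplified reads are not independent molecules, so intervals and floors cover counting error only. Genes were compared with Fisher's exact test and Benjamini-Hochberg adjustment, which was tested on simulated data. The simulated reads were independent and had no added variation between libraries, so the calls were not checked against such variation. Transcript letters are from GENCODE M21 and promoter windows from RefSeq on GRCm38.p6.

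The text names the 10 models with the highest mean level, the most read model of listed genes with a member, the 5 called genes with the largest difference each way, and models with the longest missing part or the most reads near and away from an annotated start. Some results that this rule names are not reported here. Models that kept introns, ladders and starts after GGG were chosen after their values were seen. The models and gene lists were chosen with earlier results of these data known. Scalings by edgeR 4.0.16 (TMM) and DESeq2 1.42.0 were alternatives. Other software was Python 3.11.15, pandas 2.3.3, numpy 2.4.6, scipy 1.17.1, matplotlib 3.10.9 and R 4.3.3. A planned window of genome letters was replaced by 30 bases of spliced transcripts.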

Additional observations from a re-analysis of the deposited data

How the results depend on the processing

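The number of suffix models followed the count minimum, with 3928 at 3 reads, 652 at 10 and 263 at 20, against 1785 at 5. With either library left out it was 896 to 1097. Without a count minimum the mean share of reads was 5.71%, and without Hsd3b1 2.35%, against 3.01%. With either library left out it was 2.61 to 3.21%. The median missing length of 528 nt became 473 nt with the parent of fewest missing junctions, 378 nt at 10 reads and 646 nt for models that begin within the matching exon, and was 469.5 to 528 nt with either library left out. Starts near an annotated start made up 15.6% with protein-coding transcripts only and 7.20% with RefSeq starts, against 32.1%, and 38.5% at 10 reads. With either library left out they were 30.2 to 36.2%. The start codon was lost in 73.1% with the parent of fewest missing junctions, 67.9% at 10 reads and 81.7% for models within the matching exon, against 75.2%, and in 73.4 to 73.9% with either library left out. Starts of both libraries lay within 10 nt in 72.8% and within 100 nt in 79.7% of shared chains, against 76.0% within 50 nt. GGG before the start stood at 3.80% anywhere in the last 5 bases, 2.46% at 10 reads and 8.97% off every annotated edge, against 1.87%, and at 1.64 to 2.14% with either library left out.

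The count of called genes was 242 to 317 under the 5 other settings tried, against 287, and 280 genes were called the same way when a chain listed as Suffix in either library was counted as such in both. Against all other reads of the gene, 105 were higher in replicate 2 and 207 lower, against 50 and 237. The median level of the 10 most read models was 402 CPM, 379.7 by TMM and 379.6 by DESeq2 scaling, and 343 to 531 with either library left out. The settings with Hsd3b1 left out, RefSeq starts, the matching exon, no annotated edge and a shared class were chosen after seeing the data. Leaving out a library could not be done for the gene test or the agreement of starts, which need both. No paired analysis was possible because there is only 1 group. Counts of 5 to 9 reads limit most models.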
